A study of Homo sapiens with 30 samples.

Results

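PANC-1 cells, an established human cell line of pancreatic ductal adenocarcinoma (PDAC), were compared after transfection with an siRNA against MYEOV (siMYEOV) and after transfection with an siRNA against DDX60L (siDDX60L). The comparison was made directly between the 3 siMYEOV and the 3 siDDX60L libraries, taken by their labels as 6 of the 30 libraries in the series, without going through the control libraries that both knockdowns are usually set against. The series holds 5 siRNA groups (siMYEOV, siDDX60L, siKCNN4, siS100A16 and a control siRNA, siControl) of 3 libraries each in PANC-1 and in a second PDAC line, MiaPaCa2. The study used MYEOV as a positive control for DDX60L, so the direct comparison asks where the transcriptomes of the 2 knockdowns part. All groups shared siRNA transfection, and by the study's account each gene was targeted with 1 siRNA, so the loss of the target and other effects of that sequence cannot be told apart in these libraries. PANC-1 is 1 line, and the labels do not say whether the replicates were separate cultures. The study's methods state 3 replicates per sample and, of its experiments in general, that they were independent. The error behind each p is that between these libraries, and how far it is technical cannot be told from the labels.

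MYEOV lies in the 11q13 region, next to the cyclin D1 gene, and was first described as a gene overexpressed in myeloma. DDX60L is a relative of DDX60, a helicase-like protein that belongs to the interferon-induced genes. A small interfering RNA (siRNA) is loaded into an Argonaute protein as a guide strand. Full pairing to a messenger RNA leads to its cleavage, and pairing of the guide's first bases, the seed, to 3′ untranslated regions (UTRs) can lower other messenger RNAs, as a microRNA does.

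Both sense strands are shown because the guides made from them were searched for in the transcriptome further on. Of the 3 siRNAs designed per gene, the study's text names the third for MYEOV and the second for DDX60L as those carried forward, whereas the labels give no sequence. Capitals mark the 7 bases that pair with bases 2 to 8 of the guide strand.
siMYEOV: ggaggacacgcAAGTTCAg
siDDX60L: gagcttgttctCGAGTCAt
The siMYEOV sequence lies on the plus strand at chr11:69064185-69064203 of GRCh37, in exon 3 of 3 and in the 3′ UTR of MYEOV. The siDDX60L sequence lies on the minus strand at chr4:169374318-169374336, in exon 8 of 38 and in the coding sequence of DDX60L. Each matched the transcripts of its own gene and of no other gene in the annotation. The guides, as the reverse complements with the seed in capitals, follow.
siMYEOV guide: cTGAACTTgcgtgtcctcc
siDDX60L guide: aTGACTCGagaacaagctc

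Values were FPKM (fragments scaled to transcript length and to the mapped total of the library), analysed as log2(FPKM + 1), and differences are siMYEOV minus siDDX60L on that scale. The 6 libraries had FPKM sums of 396173 to 407738. Between 12120 and 12143 entries exceeded 1 FPKM in siMYEOV libraries, against 12503 to 12555 in siDDX60L libraries, and mitochondrial transcripts took 12.7 to 13.5% against 14.3 to 14.4% of the FPKM. Replicates correlated across 12513 genes with r of 0.987 in siMYEOV and 0.982 to 0.986 in siDDX60L libraries, where genes are not independent replicates. FPKM tables hold no read totals, so no counting interval is given. The 8 ductal carcinoma line markers were all present, with a summed level of 1077 to 1216 FPKM after siMYEOV and 1348 to 1428 FPKM after siDDX60L. Both were below the 3211 to 3463 FPKM of the siControl libraries. Of 14 acinar and islet markers 9 were at 0 in all 6 compared libraries.

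The targeted genes were examined first. MYEOV was at 9.14, 10.7 and 9.99 FPKM in siMYEOV libraries, against 15.6, 15.2 and 13.5 FPKM in siDDX60L libraries and 23.2, 23.4 and 25.0 FPKM in siControl libraries. Thus MYEOV was lowest with its own siRNA, but siDDX60L libraries were also below siControl, and the 3 groups did not overlap. The MYEOV difference was -0.53 ± 0.083 (SE, n = 3 each; adjusted p = 0.0023, limma). Its size lay near the limit for a call: it was -0.49 without the first siDDX60L library, -0.47 without the first siMYEOV library and -0.46 with scaling to the median of ratios. DDX60L was at 0.994, 1.11 and 1.13 FPKM in siMYEOV libraries, against 0.516, 0.861 and 0.371 FPKM in siDDX60L libraries and 1.06, 1.35 and 1.52 FPKM in siControl libraries. DDX60L was thus a low-abundance transcript in every group, and lowest with its own siRNA. The DDX60L difference of 0.40 ± 0.13 had an adjusted p of 0.036 but was under the size required for a call, while it was 0.85 with a pseudocount of 0.1 FPKM and 0.53 without the second siDDX60L library.

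**Figure D1:**
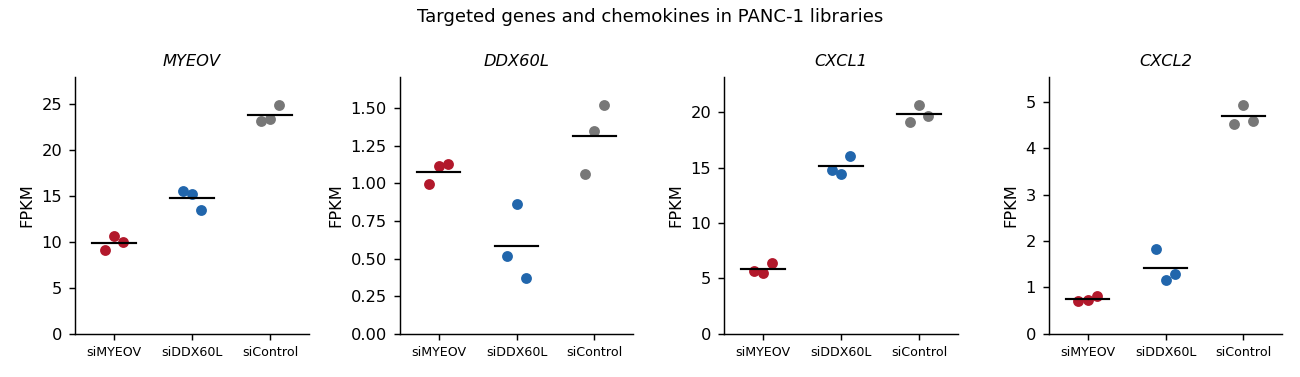
FPKM (y axis, from 0) of MYEOV, DDX60L, CXCL1 and CXCL2 in each siMYEOV, siDDX60L and siControl library of PANC-1 (points), with the mean of 3 libraries (line). MYEOV was lowest with siMYEOV and DDX60L was lowest with siDDX60L, and CXCL1 averaged 5.85 FPKM with siMYEOV against 15.1 FPKM with siDDX60L.

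A gene was called when its adjusted p (Benjamini-Hochberg, over the 12513 genes whose FPKM averaged 1 or more across the 15 PANC-1 libraries) was below 0.05 and its difference was at least 0.5. Of these genes 2965 (23.7%) were called: 1129 (9.02%) were higher and 1836 (14.7%) were lower with siMYEOV. A difference of at least 1 was reached by 147 of the higher and 339 of the lower genes. The 95% interval of the difference lay within 0.5 of 0 for 5720 genes. The median difference over all genes tested was -0.03. The counts for gene groups below are to be read against the shares of 9.02% and 14.7%.

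The position of siControl was described for each called gene, with no test, as the distance of each knockdown's mean from the siControl mean. Of the 1836 genes lower with siMYEOV, 896 had siMYEOV more than 0.5 below siControl with siDDX60L within 0.5 of it, and 308 had siDDX60L above siControl with siMYEOV within 0.5 of it. In 448 both knockdowns were within 0.5 of siControl, in 126 both were below it, in 46 they lay on opposite sides, and in 12 both were above it. Of the 1129 genes higher with siMYEOV, 514 had siMYEOV alone above siControl, 212 had siDDX60L alone below it, 312 had both within 0.5 of it, 50 had both above, 25 had the knockdowns on opposite sides, and 16 had both below.

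The largest single differences belonged to genes of diverse roles. Higher with siMYEOV were EREG (epiregulin, a ligand of the EGF receptor), VGF (a secreted neuropeptide precursor), GLTP (a glycolipid transfer protein), FICD (an enzyme that modifies the ER chaperone BiP), SLC35E1 (a member of a nucleotide sugar transporter family) and LAMTOR5 (a subunit of the Ragulator complex on lysosomes). EREG was at 12.1, 13.1 and 12.3 FPKM in siMYEOV libraries, against 2.69, 2.88 and 2.45 FPKM in siDDX60L libraries. The siDDX60L values were near the siControl mean of 3.36 FPKM, and the difference was 1.88 ± 0.074 (adjusted p = 4.1e-05). VGF was at 8.67, 8.47 and 9.18 FPKM in siMYEOV libraries, against 1.60, 1.501 and 1.88 FPKM in siDDX60L libraries. For VGF siControl, at 4.54 FPKM, lay between the groups. LAMTOR5 was at 75.8, 57.1 and 58.6 FPKM in siMYEOV libraries, against 13.3, 17.7 and 13.1 FPKM in siDDX60L libraries, with siControl at 43.5 FPKM. GLTP averaged 17.95 FPKM with siMYEOV, 4.68 FPKM with siDDX60L and 8.74 FPKM with siControl. In FICD the means were 10.3, 2.54 and 4.05 FPKM in the same order. VGF, LAMTOR5, GLTP and FICD were thus higher than siControl after siMYEOV and lower than siControl after siDDX60L.

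Among the genes lower with siMYEOV, KRT18, a keratin of simple epithelia, was at 91.6, 95.3 and 89.3 FPKM in siMYEOV libraries, against 354, 327 and 327 FPKM in siDDX60L libraries. The siControl mean of KRT18 was 1008.5 FPKM, so both knockdowns were below it, by 3.44 with siMYEOV and 1.58 with siDDX60L on the log2 scale. RASD2, a small GTPase of the Ras family, was at 1.45, 1.72 and 2.05 FPKM in siMYEOV libraries, against 10.6, 9.15 and 9.29 FPKM in siDDX60L libraries. RASD2 in siControl libraries, with a mean of 5.68 FPKM, lay between the groups. NUP210, a membrane protein of the nuclear pore, averaged 4.98 ± 0.066 FPKM with siMYEOV and 22.2 ± 0.92 FPKM with siDDX60L (SD, n = 3 each). AHNAK2, a giant scaffold protein, averaged 14.7 FPKM with siMYEOV, 58.2 FPKM with siDDX60L and 60.5 FPKM with siControl. TMEM245 and TMEM14A, both membrane proteins, averaged 4.85 and 8.31 FPKM with siMYEOV, against 21.8 and 35.1 FPKM with siDDX60L. The differences of these 6 genes lay between -1.96 and -1.86, with an SE of 0.104 for RASD2 and smaller SEs for the others.

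Some of the largest differences came from loci where reads are hard to assign. ARL2-SNX15 (2.64 ± 0.27), RPL17-C18orf32 (-1.96 ± 0.68) and TMEM256-PLSCR3 (-1.86 ± 0.55) are read-through genes that overlap their parts. The calls of the last 2 were lost when single libraries were left out: RPL17-C18orf32 had adjusted p values of 0.0819 to 0.105 without the second siDDX60L or any one siMYEOV library. TMEM256-PLSCR3 had adjusted p values of 0.0629 to 0.0837 without siDDX60L library 2 or 3 or siMYEOV library 1 or 2. AC007240.1 was at 29.5, 11.2 and 2.19 FPKM in siMYEOV libraries, against 69.2, 40.4 and 71.4 FPKM in siDDX60L libraries, and lost its call without siDDX60L library 1 or 3 or siMYEOV library 2 (adjusted p = 0.0665 to 0.0894).

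**Figure D2:**
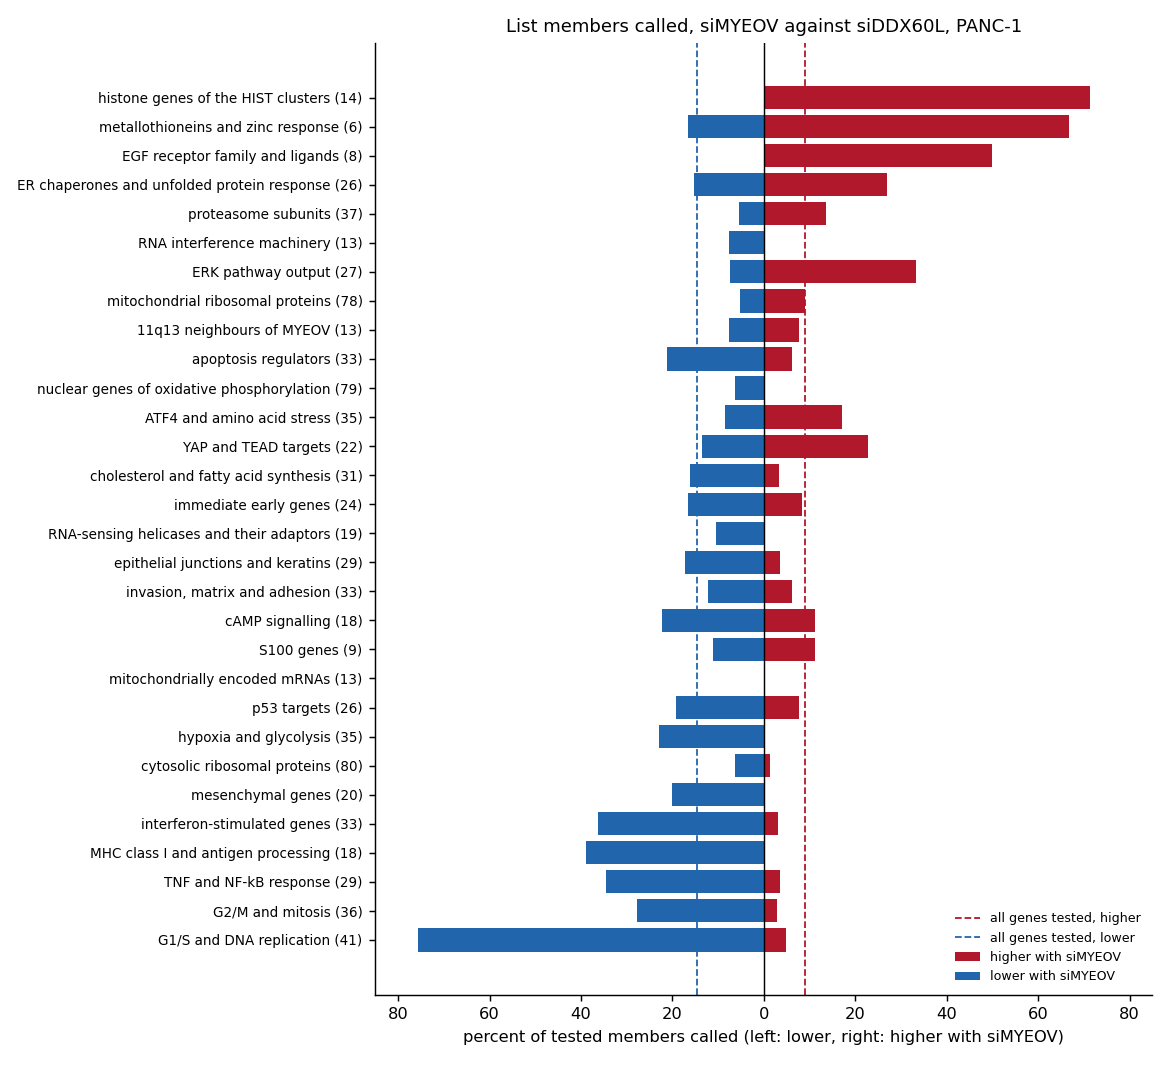
Percent of the tested members of 30 gene lists that were called higher (red, right of 0) or lower (blue, left of 0) with siMYEOV than with siDDX60L in PANC-1; the number tested is in brackets, lists run from the highest to the lowest median difference, and dashed lines mark the shares over all genes tested. Of the histone genes 10 of 14 were higher, and of the G1/S and DNA replication genes 31 of 41 were lower. The filter on low values includes the siMYEOV libraries, so histone genes near it can pass through them.

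Cell cycle genes are described first among the groups. E2F transcription factors switch on the genes of the G1/S transition and of DNA replication, which are read out in cells that enter S phase. Of 41 G1/S and DNA replication genes, all tested, 31 were lower and 2 were higher with siMYEOV, with a median difference of -0.71. The study names the cell cycle pathway from these same libraries, so the list is not independent evidence of its direction. Set against siControl, the median of the list was -0.28 with siMYEOV and 0.45 with siDDX60L. E2F1 was at 14.4, 14.3 and 14.0 FPKM in siMYEOV libraries, against 39.3, 35.4 and 35.3 FPKM in siDDX60L libraries. E2F1 in siControl libraries (13.1, 13.03 and 13.6 FPKM) was near the siMYEOV level, so it was siDDX60L that stood apart. CCNE2, cyclin E2, was also highest with siDDX60L, with 2.81 ± 0.21 FPKM with siMYEOV, 8.34 ± 0.86 FPKM with siDDX60L and 3.32 ± 0.24 FPKM with siControl (SD, n = 3 each).

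E2F2 differed most within the list, by -1.83 ± 0.075 (adjusted p = 4.1e-05). It was at 0.632, 0.583 and 0.717 FPKM in siMYEOV libraries, against 4.999, 4.79 and 4.69 FPKM in siDDX60L libraries, with siControl at 2.30 FPKM between them. E2F8, an E2F family repressor, averaged 1.70 FPKM with siMYEOV, against 5.93 FPKM with siDDX60L. The MCM helicase, which unwinds DNA at replication forks, was lower in 5 of the 6 subunits: MCM2 (-1.14), MCM3 (-0.97), MCM5 (-0.92), MCM7 (-0.88) and MCM4 (-0.71) were called, and MCM6 was at -0.10 ± 0.066. MCM7 was at 50.7, 52.0 and 51.4 FPKM in siMYEOV libraries, against 100, 95.5 and 91.1 FPKM in siDDX60L libraries. PCNA (-0.87), the sliding clamp of the polymerases, and the primase subunit PRIM1 (-1.26) were also called. The MCM, PCNA and PRIM1 values were chosen after the values of the list had been seen. In bulk libraries fewer cells in S phase and less of these transcripts per cell cannot be told apart. By flow cytometry the study found no significant cell cycle change with either siRNA against control siRNA, in PANC-1 or MiaPaCa2. Its viability assay showed reduced proliferation with siMYEOV and no effect of siDDX60L in both lines. How those assays relate to these transcripts was not tested.

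Members that went the other way were TYMS, thymidylate synthase, and E2F7, another E2F repressor. TYMS was at 34.6, 34.7 and 36.8 FPKM in siMYEOV libraries, against 14.6, 16.2 and 16.8 FPKM in siDDX60L libraries. Both were below siControl, where TYMS averaged 63.4 FPKM. E2F7 averaged 16.0 FPKM with siMYEOV and 10.6 FPKM with siDDX60L, a difference of 0.56 ± 0.07 (adjusted p = 0.00096).

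The G2/M and mitosis genes differed less. Of 36 genes 10 were lower and 1 was higher with siMYEOV, and the median was -0.38. KIF11, a motor of the spindle, averaged 16.2 FPKM with siMYEOV and 29.6 FPKM with siDDX60L (-0.83 ± 0.056). CDK1, the kinase that drives entry into mitosis, was at 32.8, 37.2 and 29.96 FPKM in siMYEOV libraries, against 48.5, 60.7 and 62.6 FPKM in siDDX60L libraries. The single member higher with siMYEOV was CDC25B, a phosphatase that activates CDK1, at 0.62 ± 0.073.

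Histone genes of the HIST clusters went the other way. Replication-dependent histone messenger RNAs normally end in a stem-loop and carry no poly(A) tail. Of 71 listed genes 14 passed the filter on low values, and 10 of these 14 were higher with siMYEOV and none was lower. That filter averages all 15 PANC-1 libraries, siMYEOV included, so a gene near 1 FPKM can pass through its siMYEOV values. HIST1H4I and HIST2H2BE, both called, averaged only 1.19 and 1.38 FPKM over these libraries. The count is therefore no test of the family. HIST1H1C, a linker histone, was at 27.0, 26.7 and 21.8 FPKM in siMYEOV libraries, against 6.01, 4.80 and 5.05 FPKM in siDDX60L libraries. With siControl at 4.34, 5.77 and 6.20 FPKM, siDDX60L and siControl overlapped. HIST1H2BK was at 128, 144 and 158 FPKM in siMYEOV libraries, against 42.4, 43.9 and 40.1 FPKM in siDDX60L libraries and 42.9 FPKM on average in siControl libraries. HIST2H2AA3 (1.77 ± 0.2) and HIST2H2AA4 (1.73 ± 0.19) are near-identical copies, so their shares of the reads are uncertain. The labels and the study's methods differ on the library kit, and how tailless transcripts were captured was not tested. SLBP, the protein that binds the histone stem-loop and was chosen after its values were seen, was at -0.30 ± 0.074 and was not called.

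**Figure D3:**
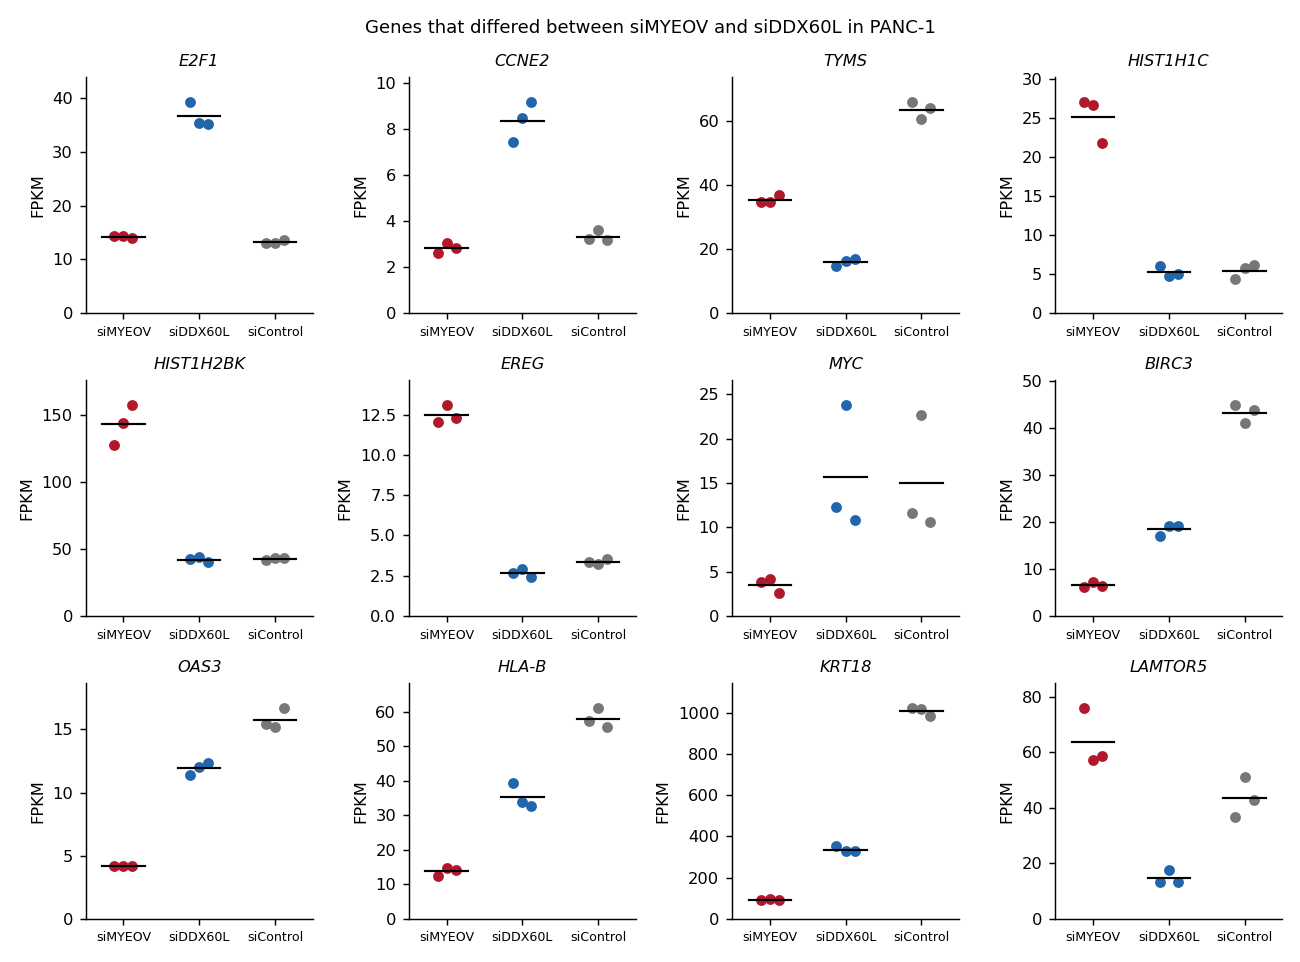
FPKM (y axis, from 0) of 12 genes in each siMYEOV, siDDX60L and siControl library of PANC-1 (points), with the mean of 3 libraries (line). For E2F1 and CCNE2 siDDX60L stood above the other groups, for HIST1H1C, HIST1H2BK and EREG siMYEOV stood above them, and for BIRC3, HLA-B and KRT18 the order was siMYEOV, siDDX60L and siControl from low to high.

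NF-kB is a transcription factor that TNF and other inflammatory signals activate, and many of its targets are chemokines, survival genes and its own inhibitors. Of 29 tested genes of the TNF and NF-kB response 10 were lower and 1 was higher with siMYEOV, with a median of -0.36. The study names lower TNF and NF-kB signalling in both knockdowns in these libraries, so the list is not independent evidence of its direction. The median of the list against siControl was -1.61 with siMYEOV and -0.89 with siDDX60L. BIRC3, an inhibitor of apoptosis, was at 6.18, 7.18 and 6.36 FPKM in siMYEOV libraries, against 17.1, 19.1 and 19.2 FPKM in siDDX60L libraries. At 43.2 FPKM on average, siControl was above both. TNFAIP2, a TNF-induced protein, averaged 21.1 FPKM with siMYEOV, 51.7 FPKM with siDDX60L and 86.2 FPKM with siControl. LTB, lymphotoxin beta, averaged 0.812 FPKM with siMYEOV and 3.13 FPKM with siDDX60L.

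Chemokines that bind CXCR2 attract neutrophils. CXCL1 was at 5.66, 5.52 and 6.37 FPKM in siMYEOV libraries, against 14.8, 14.4 and 16.1 FPKM in siDDX60L libraries, and the difference was -1.23 ± 0.076 (adjusted p = 8.4e-05). Its siControl mean was 19.8 FPKM. CXCL2 was at 0.698, 0.722 and 0.817 FPKM in siMYEOV libraries, against 1.83, 1.15 and 1.29 FPKM in siDDX60L libraries and 4.69 FPKM on average in siControl libraries. The groups of CXCL2 did not overlap, but the difference of -0.46 ± 0.12 was under the size for a call (adjusted p = 0.018). It was -0.54 without the second siDDX60L library and -0.82 with a pseudocount of 0.1 FPKM. CXCL3, with a mean of 0.842 FPKM over the 15 libraries, was not tested, and was at 0.0461, 0.281 and 0.407 FPKM in siMYEOV libraries, against 0.592, 0.968 and 1.19 FPKM in siDDX60L libraries. CXCL8, chosen after its values were seen, was called lower (-0.67). The member of the list higher with siMYEOV was CX3CL1, the membrane-bound chemokine fractalkine, which does not bind CXCR2, with 9.38 FPKM with siMYEOV and 5.85 FPKM with siDDX60L. Its siControl libraries were at 23.2, 26.3 and 72.4 FPKM, a mean of 40.6 FPKM, or 24.7 FPKM without the third library. Its call was lost when all 15 PANC-1 libraries shared one estimate of the spread (adjusted p = 0.306).

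Interferon-stimulated genes encode antiviral proteins, and DDX60L's relative DDX60 is one of them. Of 33 tested, 12 were lower and 1 was higher with siMYEOV, and the median was -0.28. OAS3, a sensor of double-stranded RNA that activates RNase L, was at 4.20, 4.19 and 4.19 FPKM in siMYEOV libraries, against 11.4, 12.03 and 12.3 FPKM in siDDX60L libraries. IFI6, an ER protein that blocks flavivirus replication, was at 9.10, 10.7 and 9.38 FPKM in siMYEOV libraries, against 22.4, 20.7 and 24.6 FPKM in siDDX60L libraries. IFI6 was above its siControl mean of 14.8 FPKM with siDDX60L and below it with siMYEOV, while OAS3 at 15.8 FPKM in siControl was below it with both. IRF1, a transcription factor, averaged 4.71 FPKM with siMYEOV, 9.92 FPKM with siDDX60L and 19.96 FPKM with siControl. DDX60 itself was at 1.16, 0.998 and 1.16 FPKM in siMYEOV libraries, against 1.83, 2.76 and 2.44 FPKM in siDDX60L libraries (-0.66 ± 0.12; adjusted p = 0.0043). The ubiquitin-like modifier ISG15, chosen after its values were seen, was at 58.1, 64.2 and 60.6 FPKM in siMYEOV libraries, against 63.0, 61.9 and 57.9 FPKM in siDDX60L libraries, so the groups overlapped. Of the 19 RNA-sensing helicases and their adaptors, 2 were lower (DDX60 and the ubiquitin ligase TRIM25, -0.58 ± 0.051) and none was higher.

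MHC class I molecules present peptides cut by the immunoproteasome and trimmed in the ER. Of 18 genes of this group 7 were lower and none was higher with siMYEOV, with a median of -0.33. HLA-B was at 12.4, 14.6 and 14.1 FPKM in siMYEOV libraries, against 39.3, 34.0 and 32.7 FPKM in siDDX60L libraries and 58.0 FPKM on average in siControl libraries. HLA-F averaged 0.788 FPKM with siMYEOV and 4.48 FPKM with siDDX60L, but class I genes resemble each other and can share reads. The ER aminopeptidase ERAP1 was at 3.10, 4.21 and 4.48 FPKM in siMYEOV libraries, against 10.9, 12.5 and 12.6 FPKM in siDDX60L libraries, near the siControl mean of 12.6 FPKM. The immunoproteasome subunits PSMB8 (-0.96 ± 0.074) and PSMB9 (-0.94 ± 0.093) were lower. Of 37 proteasome subunits 5 were higher, a share near that of all genes, among them PSMD8 (0.70 ± 0.057) and PSMB6 (0.68 ± 0.05), and PSMB8 and PSMB9 were the only 2 of that list that were lower.

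The ERK pathway relays growth factor signals. Of 27 of its output genes 9 (33.3%) were higher and 2 (7.41%) were lower with siMYEOV, with a median of 0.10. Set against siControl, the median of the list was below 0 in both knockdowns, at -0.26 with siMYEOV and -0.33 with siDDX60L. The feedback phosphatase DUSP5 was at 39.7, 38.5 and 39.97 FPKM in siMYEOV libraries, against 16.3, 16.9 and 15.1 FPKM in siDDX60L libraries. AREG, amphiregulin, was at 10.8, 11.1 and 10.98 FPKM in siMYEOV libraries, against 4.91, 3.44 and 4.71 FPKM in siDDX60L libraries. Both AREG groups were above siControl, at 2.12 FPKM. Of the 8 tested genes of the EGF receptor family and its ligands, 4 were higher and none was lower: EREG, AREG, HBEGF (0.60 ± 0.087) and ERRFI1, a feedback inhibitor of the receptor, with 513 FPKM with siMYEOV and 251 FPKM with siDDX60L. EREG, AREG and HBEGF were also counted among the 9 ERK output genes. Lower with siMYEOV among the ERK output genes were ETV1 (-0.69 ± 0.093) and MYC. MYC was at 3.87, 4.15 and 2.54 FPKM in siMYEOV libraries, against 12.3, 23.8 and 10.8 FPKM in siDDX60L libraries. Its siControl values of 11.6, 22.7 and 10.6 FPKM overlapped those of siDDX60L, and the second library was the highest in both groups. The MYC difference was -1.82 ± 0.29 (adjusted p = 0.0026).

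Immediate early genes were split. KLF6, a zinc finger factor, was at 77.6, 78.7 and 77.2 FPKM in siMYEOV libraries, against 38.4, 35.8 and 37.2 FPKM in siDDX60L libraries. The nuclear receptor NR4A1 was at 2.14, 2.88 and 1.84 FPKM in siMYEOV libraries, against 7.16, 6.87 and 7.07 FPKM in siDDX60L libraries. Of 24 tested, 2 were higher and 4 were lower, close to the shares over all genes. Of 22 YAP and TEAD targets, 5 were higher and 3 were lower. CTGF, a matricellular protein, averaged 41.4 FPKM with siMYEOV and 26.1 FPKM with siDDX60L, both below its siControl mean of 95.4 FPKM.

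Genes of the unfolded protein response act when proteins misfold in the endoplasmic reticulum (ER). Of 26 genes 7 were higher and 4 were lower with siMYEOV, and the median was 0.27. The chaperone HSPA5 (BiP) was at 373, 372 and 373 FPKM in siMYEOV libraries, against 216, 211 and 211 FPKM in siDDX60L libraries and 168 FPKM on average in siControl libraries. HYOU1, a large ER chaperone, was at 153, 155 and 163 FPKM in siMYEOV libraries, against 47.6, 62.0 and 62.5 FPKM in siDDX60L libraries, with siControl between them at 104 FPKM. The transcription factor XBP1 (1.03 ± 0.12) and the ER degradation adaptor SEL1L (0.76 ± 0.078) were higher. MANF, an ER stress-inducible secreted protein, went the other way, with 16.9 FPKM with siMYEOV and 35.1 FPKM with siDDX60L. DDIT3 (CHOP), a stress-induced factor counted with the ATF4 targets, averaged 74.5 FPKM with siMYEOV, 36.9 FPKM with siDDX60L and 22.4 FPKM with siControl. Of the 35 genes of the ATF4 and amino acid stress list, 6 were higher, among them SLC7A11 (0.77 ± 0.088) and PSPH (0.65 ± 0.082). PHGDH, which starts serine synthesis, was 1 of 3 that were lower (-0.97 ± 0.056).

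Epithelial and matrix genes differed in a few members, and the shares lower were near the 14.7% over all genes. Of 29 epithelial junction and keratin genes 5 (17.2%) were lower and 1 (3.45%) was higher with siMYEOV. Cingulin (CGN), a tight junction protein, averaged 1.17 FPKM with siMYEOV and 5.52 FPKM with siDDX60L, and F11R, the junctional adhesion molecule A, averaged 25.7 FPKM with siMYEOV and 11.4 FPKM with siDDX60L. Of 33 invasion, matrix and adhesion genes 4 (12.1%) were lower and 2 (6.06%) were higher. ITGAV, the integrin alpha V chain, was at 27.9, 28.0 and 27.9 FPKM in siMYEOV libraries, against 58.7, 65.0 and 68.7 FPKM in siDDX60L libraries. Its partner ITGB5 averaged 37.6 FPKM with siMYEOV, 86.9 FPKM with siDDX60L and 119 FPKM with siControl. Among the 20 mesenchymal genes 4 were lower and none was higher, with N-cadherin (CDH2) at 3.75 FPKM with siMYEOV and 7.58 FPKM with siDDX60L. ACTA2 and THY1, both called lower, also belong to the 10 fibroblast markers. The summed fibroblast markers were at 7.60 to 8.34 FPKM in siMYEOV libraries, against 10.98 to 14.1 FPKM in siDDX60L libraries, with 7 of the 10 below 1 FPKM on average. The part of such cells in the result was not tested.

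Of the 14 leukocyte markers 12 averaged below 1 FPKM over the 15 PANC-1 libraries, and 4 were at 0 in all 6 compared libraries. The 2 tested ones differed in opposite directions. CD68, which lysosomes of many cells hold, was at 50.7, 51.6 and 55.3 FPKM in siMYEOV libraries, against 34.3, 29.3 and 30.3 FPKM in siDDX60L libraries. CD74, the invariant chain of MHC class II, was at 0.626, 1.44 and 0.428 FPKM in siMYEOV libraries, against 3.11, 2.62 and 2.19 FPKM in siDDX60L libraries. The 10 endothelial markers summed to 1.19 to 1.74 FPKM in siMYEOV libraries and 2.01 to 2.37 FPKM in siDDX60L libraries.

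The S100 genes S100A6 and S100A4 are neighbours on chromosome 1 and encode calcium-binding proteins. S100A6 was at 452, 536 and 549 FPKM in siMYEOV libraries, against 200, 211 and 195 FPKM in siDDX60L libraries, with siControl at 569 FPKM. S100A4 was at 38.8, 42.9 and 44.5 FPKM in siMYEOV libraries, against 112, 126 and 110 FPKM in siDDX60L libraries, with siControl at 178 FPKM. These neighbours thus went in opposite directions. Metallothioneins bind zinc and copper. MT2A was at 630, 802 and 821 FPKM in siMYEOV libraries, against 447, 420 and 401 FPKM in siDDX60L libraries. Its list also holds zinc response genes that are not metallothioneins, MTF1 and SLC30A1 among those tested. Of the 6 tested genes of the list 4, MTF1 included, were higher and 1, MT1F, was lower.

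MSMO1, an enzyme of cholesterol synthesis, averaged 14.5 FPKM with siMYEOV and 43.2 FPKM with siDDX60L. Of the 31 genes of cholesterol and fatty acid synthesis 5 were lower and 1 was higher, with a median of -0.01. Of 35 hypoxia and glycolysis genes 8 were lower and none was higher. The phosphoglucomutase PGM1 averaged 24.5 FPKM with siMYEOV and 51.5 FPKM with siDDX60L.

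Of 33 apoptosis regulators 7 were lower and 2 were higher. PMAIP1 (NOXA), a p53 target that promotes apoptosis, averaged 3.31 FPKM with siMYEOV and 9.39 FPKM with siDDX60L. Of 26 p53 targets 5 were lower and 2 were higher.

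Few genes of oxidative phosphorylation and of the cytosolic ribosome were called. Of 79 nuclear genes of oxidative phosphorylation 5 were lower and none was higher, and the interval of 49 lay within 0.5 of 0. COX6A1, a subunit of cytochrome c oxidase, was the exception in size, with 133 FPKM with siMYEOV and 404 FPKM with siDDX60L. None of the 13 mitochondrially encoded messenger RNAs was called, and 12 had intervals within 0.5 of 0. Of 80 cytosolic ribosomal protein genes 5 were lower and 1 was higher, with a median of -0.24. That count of 5 was 8 without the third siDDX60L library and 9 without the second or the third siMYEOV library, and 3 with scaling to the median of ratios. With that scaling 3 of the oxidative phosphorylation genes were higher. Among 78 mitochondrial ribosomal protein genes 7 were higher (8.97%, near the 9.02% over all genes) and 4 were lower (5.13%), led by MRPL24 (1.42 ± 0.058) and MRPL11 (-1.41 ± 0.086). Of the 13 tested 11q13 neighbours of MYEOV, 1 was higher (the neuropeptide galanin, GAL, 0.79 ± 0.12) and 1 was lower (the Wnt co-receptor LRP5, -0.64 ± 0.079). Of 13 genes of the RNA interference machinery, through which both siRNAs act, TNRC6C alone was called (-0.70 ± 0.078).

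The guide seeds printed above were then looked up in the 3′ UTRs of the tested genes. One transcript per gene was used, which gave a 3′ UTR for 11487 genes, 91.8% of those tested. Of these genes 9.20% were higher and 15.2% were lower with siMYEOV. A match to bases 2 to 8 of the siMYEOV guide (AAGTTCA, sense strand only) was present in 1556 genes, 13.5% of all UTRs. Of them 378 (24.3%) were lower and 77 (4.95%) were higher with siMYEOV, and the median difference was -0.17. Against siControl their median was -0.12 with siMYEOV and 0.06 with siDDX60L. With an A after the match (AAGTTCAA), 28.8% of 468 genes were lower.

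The siDDX60L seed match (CGAGTCA, sense strand only) was rarer, in 193 genes or 1.68% of UTRs. Of these 32 (16.6%) were higher with siMYEOV, that is, lower with siDDX60L, and 21 (10.9%) were lower. Followed by an A (CGAGTCAA), it occurred in 30 genes, of which 10 were higher and 2 were lower with siMYEOV. The seeds of the passenger strands gave 15.3% lower and 7.77% higher for siMYEOV (TGTCCTC, 1763 genes). For siDDX60L they gave 13.5% higher and 13.4% lower (ACAAGCT, 1032 genes).

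UTR length moved with the seed match, with a median of 3331 bases in genes with the siMYEOV match and 1308 bases over all genes. The shares were therefore given within 3 classes of UTR length with about equal numbers of genes. In the shortest class 35 of 89 genes with the match (39.3%) were lower, against 14.3% of 3743 genes without it. In the middle class the shares were 30.6% and 14.9%, and in the longest class 21.1% and 11.6%. Genes with neither guide's match were 85.2% of the genes with a 3′ UTR. Of these 9785 genes 1358 (13.9%) were lower and 952 (9.73%) were higher, near the 15.2% and 9.20% over all. A match is a description of the letters in 1 annotated UTR, and whether the guide acted there was not tested.

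**Figure D4:**
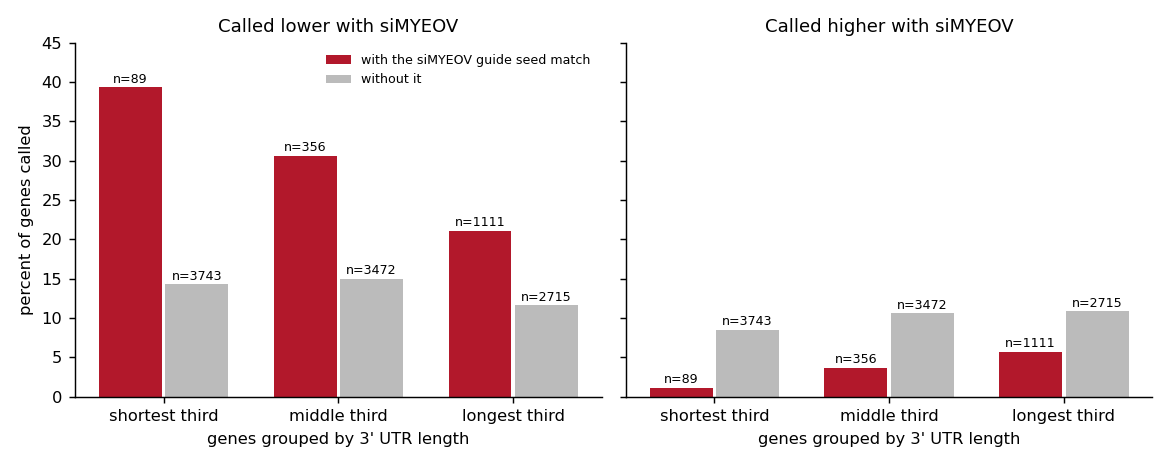
Percent of genes (y axis, from 0) called lower (left) or higher (right) with siMYEOV than with siDDX60L, in 3 classes of 3′ UTR length, for genes with a match to the siMYEOV guide seed (red) and without one (grey); the number of genes stands above each bar. In each class the share called lower was above that of genes without the match (39.3% against 14.3% in the shortest class), and the share called higher was below it.

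Genes with the siMYEOV match and large negative differences included KRT18, TMEM245, TMEM14A, PCYOX1L (2.46 FPKM with siMYEOV and 12.1 FPKM with siDDX60L) and the galactosyltransferase B4GALT5. B4GALT5 was at 10.1, 10.4 and 9.67 FPKM in siMYEOV libraries, against 33.3, 36.1 and 36.5 FPKM in siDDX60L libraries, with siControl at 30.1 FPKM. MSMO1, ITGAV and S100A4 held the match as well. Genes with the siDDX60L match and large positive differences included TMEM127, a tumour suppressor membrane protein, and RRN3, an initiation factor of RNA polymerase I. TMEM127 was at 29.9, 31.3 and 27.4 FPKM in siMYEOV libraries, against 11.2, 8.73 and 12.3 FPKM in siDDX60L libraries, with siControl at 20.5 FPKM. RRN3 was at 45.3, 44.2 and 44.5 FPKM in siMYEOV libraries, against 19.7, 20.1 and 20.5 FPKM in siDDX60L libraries, with siControl at 31.5 FPKM. The E2F genes named above, HIST1H1C, EREG, CXCL1, BIRC3 and OAS3 did not hold the siMYEOV match, and of these BIRC3 held the siDDX60L match.

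The same contrast was fitted in MiaPaCa2, where MYEOV was below 1 FPKM in every library (0.155 to 0.190 FPKM with siMYEOV, 0.408 to 0.714 FPKM with siDDX60L and 0.691 to 0.985 FPKM with siControl). DDX60L in MiaPaCa2 was at 0.187 to 0.233 FPKM with siDDX60L, 1.98 to 3.03 FPKM with siMYEOV and 1.70 to 2.24 FPKM with siControl. The DDX60L difference was 1.57 in MiaPaCa2 (called) and 0.40 in PANC-1 (not called), with a called difference between lines of -1.17. In MiaPaCa2 1488 of 11875 genes (12.5%) were higher and 1158 (9.75%) were lower with siMYEOV. Of the 1054 genes higher in PANC-1 and tested in both lines, 568 (53.9%) were also higher in MiaPaCa2, which is 40.8% of the MiaPaCa2 genes higher, and 5 were lower. Of the 1492 genes lower in PANC-1, 661 (44.3%) were lower in MiaPaCa2 too, which is 61.4% of that list, and 10 were higher. Across the 11084 genes tested in both lines the 2 differences correlated with r of 0.642, where genes are not independent and both lines received the same siRNA sequences. The difference between the lines, tested as an interaction over the 12 libraries, was called for 1366 of 11084 genes (12.3%).

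Genes that differed the same way in both lines included LAMTOR5 (2.05 in PANC-1 and 2.37 in MiaPaCa2), GLTP (1.74 and 1.56), FNDC3A (1.59 and 1.69), AHNAK2 (-1.91 and -2.49), TMEM14A (-1.96 and -1.87) and KRT18 (-1.86 and -3.95). The negative KRT18 difference was larger in size in MiaPaCa2, with a difference between lines of 2.09. In the genes with the siMYEOV seed match, the median difference was -0.17 in PANC-1 and -0.10 in MiaPaCa2. The median over all tested genes with a 3′ UTR was -0.03 in PANC-1 and 0.06 in MiaPaCa2. Of the histone genes 10 of 14 tested were higher in PANC-1 and 21 of 27 tested in MiaPaCa2, and HIST1H2BK differed by 1.74 in PANC-1 and 4.04 in MiaPaCa2 (difference between lines -2.31). In each line the filter on low values includes the siMYEOV libraries, so these histone counts are no test of the family.

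**Figure D5:**
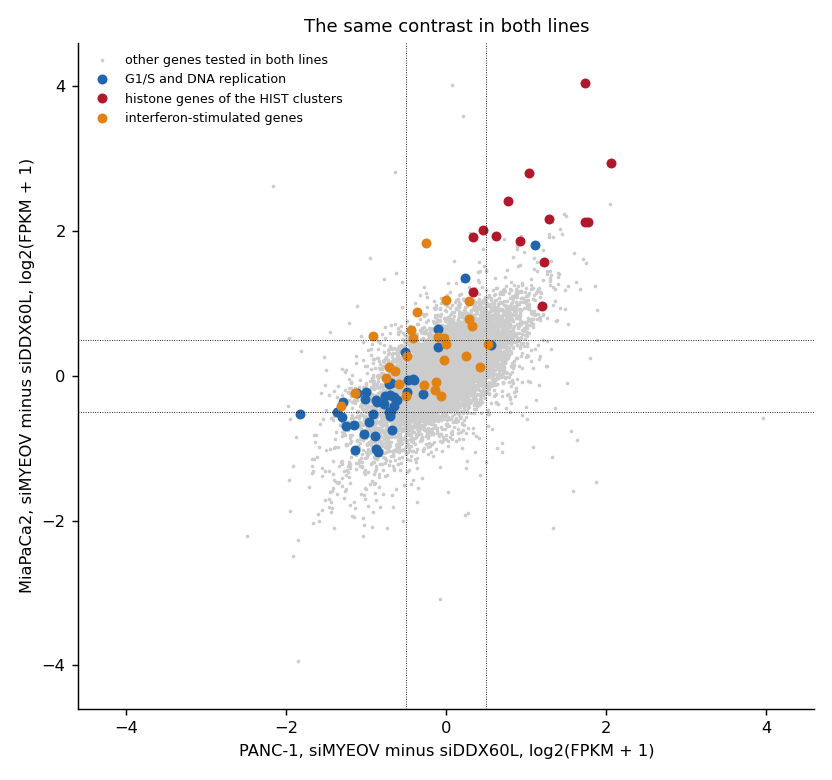
Difference siMYEOV minus siDDX60L in log2(FPKM + 1) in PANC-1 (x axis) and MiaPaCa2 (y axis) for the 11084 genes tested in both lines (points), with 3 lists coloured and dotted lines at 0.5 above and below 0. Counts here are over the members tested in each line, so they include members that are not drawn. Of the histone genes 10 of 14 were higher in PANC-1 and 21 of 27 in MiaPaCa2. Of the interferon-stimulated genes 12 of 33 were lower in PANC-1 and 11 of 29 were higher in MiaPaCa2. Histone genes near the filter on low values can pass it through the siMYEOV libraries.

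The interferon list leaned opposite ways in the lines. The G1/S list leaned lower with siMYEOV in both, with fewer members called in MiaPaCa2. Of the 41 G1/S genes 15 were lower and 3 were higher in MiaPaCa2, against 31 and 2 in PANC-1, and 17 had a called difference between lines. E2F2 differed by -1.83 in PANC-1 and -0.53 in MiaPaCa2, with a difference between lines of -1.30. Of 29 interferon-stimulated genes tested in MiaPaCa2, 11 were higher and none was lower with siMYEOV, and 16 of the list had a called difference between lines. Chosen after these values were seen, IFITM1 was at -0.26 ± 0.2 in PANC-1 and 1.83 in MiaPaCa2, UBE2L6 at -0.01 ± 0.087 and 1.04, and BST2 at -0.37 ± 0.12 and 0.88. The differences between lines of these 3 genes were -2.09, -1.05 and -1.25. OAS3 was called in PANC-1 (-1.31) and not in MiaPaCa2 (-0.42), and its difference between lines was called (-0.89).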

How the data were processed

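RNA was made into libraries with a TruSeq RNA kit after Trizol extraction, per the labels; the methods of the study give a column kit and a stranded mRNA kit instead, and this was not resolved here. The processing notes of the submitters name TopHat2 2.0.12 and GRCh37. The authors deposited FPKM, 1 column per library, in a table of 24895 entries (19974 with an Ensembl identifier). The program that computed FPKM is not given in the sources used here. No read totals were at hand, so no test of counts was run; relative depth, estimated from steps between low values, was 1.05 to 1.15 in siMYEOV and 0.969 to 1.32 in siDDX60L libraries (first siControl library = 1), on a minority of low genes. Since FPKM is scaled to the mapped total, a change in abundant genes shifts the others.

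Symbols of 27 genes turned into dates were restored by identifier. Differences were computed on log2(FPKM + 1), which understates changes of low genes, with limma 3.58.1 under R 4.3.3 (the 6 PANC-1 libraries in 1 model, empirical Bayes with a mean-variance trend; adjusted p by Benjamini-Hochberg over 12513 genes, 857 of them models without identifier). The MiaPaCa2 contrast used its own 6 libraries, and the difference between lines an interaction over both sets. Errors are SEs of log2 differences or SDs of FPKM. On simulated data for the PANC-1 contrast (12513 genes, 100 changed at each size), 68% of changes of 0.75 and 97% of changes of 1.5 were recovered, with 4 false calls. Seeds were matched to 3′ UTRs of GENCODE transcripts on GRCh37.

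Members and lists were chosen with earlier results of these data known. Named genes were the targets and CXCL1 to CXCL3, the 12 largest called differences each way whose groups did not overlap, up to 4 called members per list and direction, genes with siControl between the knockdowns, genes called in both lines, and seed-matched genes; others are said to be chosen after their values were seen. Alternatives were another pseudocount, 2 filters, another scaling, all libraries, no trend, a replicate block and leaving out each compared PANC-1 library. Results for some genes are not reported here.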

Additional observations from a re-analysis of the deposited data

Results flagged for a closer look

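For 9 named genes the PANC-1 and MiaPaCa2 differences (siMYEOV minus siDDX60L) were called in opposite directions, with a called difference between lines (PANC-1 minus MiaPaCa2, limma interaction). PTGES, the prostaglandin E synthase, was lower in PANC-1 (-0.95) and higher in MiaPaCa2 (1.63), a difference between lines of -2.58. IRF1 was at -0.91 in PANC-1 and 0.55 in MiaPaCa2 (-1.46 between lines). AHCYL2, BDH2 and ZNF429 were also lower in PANC-1 and higher in MiaPaCa2, with differences between lines of -1.21, -1.20 and -1.18. The other way round were AL669918.1 (2.07), DOK3 (1.49), NAPRT (1.31) and HDAC9 (1.06). DOK3, an adaptor of immune receptor signalling, was at 5.74, 5.37 and 5.11 FPKM in PANC-1 siMYEOV libraries, against 2.20, 2.27 and 2.49 FPKM in siDDX60L libraries. NAPRT, HDAC9 and BDH2 lost their PANC-1 call when single libraries were left out: NAPRT was at 0.497 without the second siMYEOV library. HDAC9 was at 0.47 without the first siDDX60L and 0.46 without the second siMYEOV library. BDH2 was at -0.47 without the third siDDX60L library, and had adjusted p values of 0.0507 and 0.0543 without the first and the second siMYEOV library.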

How the results depend on the processing

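The counts of called genes stayed within 1.5 times their value in each alternative run but one. With a filter at a mean of 5 FPKM, which tests fewer genes (8969), 1164 genes were lower with siMYEOV, against 1836, and 830 had a difference between lines, against 1366. Leaving out each compared PANC-1 library in turn gave 1105 to 1132 genes higher and 1796 to 1844 lower. It gave 1275 to 1361 genes with a difference between lines, for which no MiaPaCa2 library was left out. Scaling to the median of ratios gave 1419 higher and 1572 lower, so 47.4% of calls were higher, against 38.1%, and the median difference was 0.03, against -0.03. The replicate block gave 1130 higher, 1829 lower and 1272 with a difference between lines; the numbers do not pair the libraries (same-numbered deviations correlated at 0.0072, -0.058 and 0.022), and of 182 named genes the block changed no call. Of these 182 genes, 165 kept their call in every alternative in which they were tested, and no direction was reversed. Among lists, the filter at 5 FPKM tested fewer members: 5 of 5 histone genes were higher, against 10 of 14, and 7 of 20 interferon-stimulated genes were lower, against 12 of 33. That filter too averages the siMYEOV libraries in. The depth of single libraries is unknown, which limits genes near 1 FPKM such as DDX60L.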
